A study of Mus musculus with 26 samples.

Results

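RNA polymerase II (Pol II) was mapped by ChIP-seq in a RAW264.7 mouse macrophage line that makes HA-tagged Nur77 on demand, before and 1 h after lipopolysaccharide (LPS). The comparison rests on 4 of the 26 libraries of the series: 2 of untreated cells and 2 of cells given 500 ng/ml LPS. They were taken by their titles, as all Pol II libraries of the Nur77 line. Both groups had received 50 ng/ml doxycycline for 18 h, so HA-Nur77 was switched on in the untreated cells too, and chromatin was fixed with 1% formaldehyde only. A second line, which makes GFP in place of HA-Nur77, went through the same steps and had 4 Pol II libraries of its own. Each construct is represented by 1 stable line, so line and construct cannot be told apart. Nothing in the labels ties the replicates to separate cultures, so p-values measure only the spread between these libraries, which may be technical.

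Pol II transcribes the protein-coding genes. At many of them it starts, halts a short way into the gene, and is released into the gene body when the gene is activated, so that a ChIP signal can change at the start, along the body and past the end of a gene. LPS, a component of the outer membrane of Gram-negative bacteria, is sensed by TLR4 on macrophages and sets off NF-kB, MAP kinase and interferon signalling within the first hour. Nur77, encoded by Nr4a1, is a nuclear receptor that is itself induced early by such stimuli.

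The authors deposited, for each library, the regions in which their software found Pol II, with a normalized tag count (sequenced tags in the region per 10 M mapped tags). Regions of the 4 libraries that shared at least 1 bp were merged into 38862, and 18362 of these (47.2%) had a region in all 4 libraries and were tested. The tested regions held 97.1% of the normalized tags. Values called scaled tags below were brought to a common level between libraries with 1 factor per library. Depth was 12.8 M and 18.1 M mapped tags untreated and 14.03 M and 20.9 M after LPS, and the called regions held 57.1 to 63.98% of them. Untreated replicate 1 stands apart: its header gives a fragment length of 1550 bp, against 174 to 318 bp in the other 7 Pol II libraries of the series, and its regions were wider, with a median of 2.25 kb against 1.32 to 1.41 kb in the other 3 libraries. Values are therefore also given from a fit in which this library was left out before merging and the other 7 Pol II libraries were fitted together, called the fit without the wide library below. Replicates correlated with a Pearson r of 0.954 (untreated) and 0.953 (LPS) across tested regions, which are not independent of each other. All 12 macrophage marker genes examined had a region in all 4 libraries, whereas 4 of 29 markers of other cell types had one and 21 were listed at 0 in all 4.

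LPS changed Pol II over a large part of the tested regions within 1 h. With limma and Benjamini-Hochberg adjustment at 0.05, 5396 of 18362 regions were called (29.4%), 2821 higher (15.4%) and 2575 lower (14.0%). Gains reached further than losses: 198 regions rose and 62 fell more than 8-fold, 42 rose and 6 fell more than 16-fold, and 10 rose more than 32-fold with no loss of that size. The median log2 change over all tested regions was 0.02. Without scaling beyond the deposited normalization the median moved to -0.40 and the split became 1651 higher and 5201 lower, so directions below are relative to the bulk of regions. The fit without the wide library called 2858 of 18059 regions (15.8%), 1545 higher (8.56%) and 1313 lower (7.27%). Of the called regions that this fit also tested, 99.9% of gains and 99.7% of losses kept their sign, and 53.2% of gains and 52.1% of losses were called again.

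**Figure D1:**
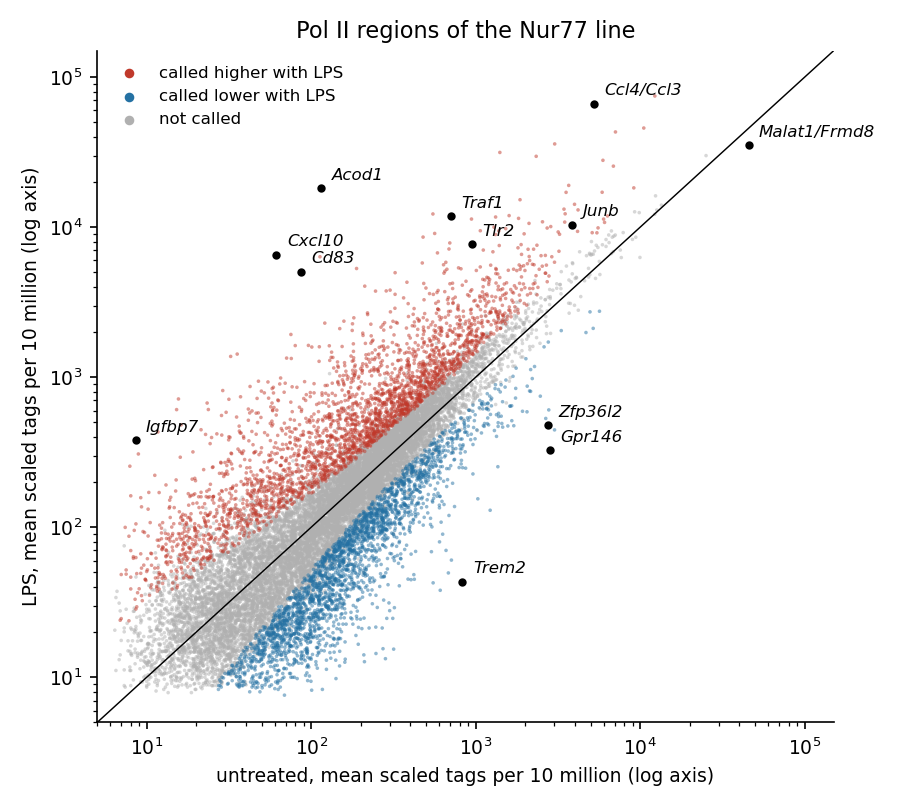
Mean scaled tags per 10 M in untreated cells (horizontal, log axis) and after LPS (vertical, log axis) for the 18362 tested Pol II regions, with calls at an adjusted p under 0.05 in colour. The 2821 gains lie above the line of equality and the 2575 losses below it. Acod1 and Cxcl10 lie farthest above the line, Trem2 farthest below, and the region of Malat1 and Frmd8 was not called.

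The largest gain lay over Acod1, whose enzyme makes itaconate. It held 124 and 106 scaled tags in the 2 untreated libraries and 13405 and 22902 after LPS. Its region (chr14:103045722-103064029, mm10) covered the whole gene, and the change was 7.24 ± 0.27 on the log2 scale (± SE, adjusted p = 0.000343, n = 2 against 2 libraries, limma). The region of Cxcl10, a chemokine that draws CXCR3-bearing lymphocytes, ran into the neighbouring Art3 (chr5:92341069-92354967) and rose from 45.1 and 77.9 to 6019 and 7092. Its log2 change was 6.76 ± 0.27 (adjusted p = 0.000343). Ccrl2, which encodes a chemerin-binding receptor, rose from 66.6 and 159.6 to 5997 and 6706, and Cd83, a surface protein of activated antigen-presenting cells, from 76.9 and 96.2 to 4343 and 5782. Without the wide library Ccrl2 changed by 5.26, against 5.93 with all 4 libraries. In each of these genes both LPS libraries lay far above both untreated ones, and a lack of overlap was a condition of their choice. Over all tested regions both LPS libraries lay above both untreated ones in 34.3%, and the conditions did not overlap in 68.1%.

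The starts of Cxcl10 and Ccrl2 are shown because, among the 12 largest gains over genes, these were the genes whose listed promoter carried a match to the NF-kB motif and whose start lay in the region. The 250 bases before each start are given from 5′ to 3′ on the gene's own strand, from RefSeq (GRCm38.p6), with NF-kB matches in capitals. Cxcl10 lies on the minus strand (chr5:92348890-92349139) with matches that begin 159 and 103 bases before the start, and Ccrl2 on the minus strand (chr9:111057519-111057768) with 1 match that begins 56 bases before it.
Cxcl10: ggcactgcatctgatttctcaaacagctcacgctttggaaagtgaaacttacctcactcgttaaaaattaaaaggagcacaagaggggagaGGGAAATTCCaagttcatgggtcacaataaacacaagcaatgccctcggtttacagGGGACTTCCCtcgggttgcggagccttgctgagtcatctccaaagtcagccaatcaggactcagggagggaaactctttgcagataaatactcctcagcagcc
Ccrl2: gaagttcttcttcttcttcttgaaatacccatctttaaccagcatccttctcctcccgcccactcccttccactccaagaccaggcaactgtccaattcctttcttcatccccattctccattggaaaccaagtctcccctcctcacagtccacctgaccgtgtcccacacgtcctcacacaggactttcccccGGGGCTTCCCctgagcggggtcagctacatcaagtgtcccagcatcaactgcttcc

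Of the 32851 promoters in the RefSeq table, several of which can belong to 1 gene, 3.9% held an NF-kB match on either strand in these 250 bases. The share was 6.94% (129 of 1860) for promoters whose start lay in a region called higher, 9.15% (27 of 295) where the gain was at least 4-fold, 4.29% where the region was tested and not called, and 4.01% where it was lower. The AP-1 motif TGANTCA stood in 6.75% of all promoters, 6.18% of those in gained regions, 10.2% (30 of 295) of those with at least 4-fold gains, 3.88% in regions not called and 4.22% in lost regions. The cAMP response element TGACGTCA stood in 1.55% of all promoters, 3.12% in gained regions, 1.36% (4 of 295) where the gain was at least 4-fold, 3.06% in regions not called and 0.829% in lost regions. The Nur77 element AAAGGTCA was rare, at 1.34% of all promoters, 1.24% in gained regions, 1.36% where the gain was at least 4-fold, 0.728% in regions not called and 0.691% in lost regions. The TATA box sequence TATAAA stood in 12.4%, 7.85%, 9.49%, 5.64% and 5.81% of the same classes. Both strands were searched, a promoter that held several motifs or overlapping ones was counted under each, and a match is a run of letters, not a measured site.

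Several of the other large gains lay inside genes, away from any listed start. A region in Lpp, which encodes a LIM-domain protein of cell adhesions, covered 1.09% of that 599 kb gene (chr16:24666895-24673419) and rose from 6.72 and 24.4 to 649 and 784 (log2 5.67 ± 0.54, and 4.8 and 6.53 without untreated replicate 1 or 2). Regions inside Igfbp7, a secreted binding protein of insulin-like growth factors, and Tasp1, which encodes the protease taspase, were of the same kind: Igfbp7 rose from 8.62 and 8.48 to 302 and 459 and Tasp1 from 13.4 and 16.9 to 632 and 585. Regions over Mmp14 (a membrane-bound matrix metalloproteinase, 6.72 and 64.4 to 1063 and 1790.1) and Tgm2 (a transglutaminase, 6.72 and 39.9 to 566 and 779.7) had untreated libraries that lay far apart, with SEs of 0.91 and 0.72 on the log2 scale. Their log2 changes of 5.94 and 5.23 became 4.36 and 3.98 without the wide library, and 7.48 and 6.42 without untreated replicate 2. Only 19.9% of the first region lay inside Mmp14. Of the second 95.5% lay inside Tgm2, a gene without a listed start. Dnaic2, whose region holds its listed start and is shared with Ttyh2, rose from 17.9 and 46.9 to 1522 and 1229.9 (log2 5.51, and 4.79 without the wide library). The list of the 12 largest gains was completed by a region in Alpk2 (7.04 and 10.7 to 325 and 291) and by the unnamed gene model Gm20655 (11.8 and 11.7 to 586 and 278). The regions in Lpp, Igfbp7, Tasp1, Alpk2 and Gm20655 were not tested in the fit without the wide library, where a region in every one of 7 libraries was needed.

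The largest loss lay over Trem2, a lipid-sensing receptor of macrophages. Its region (chr17:48345327-48351730) held 651 and 1012 scaled tags in untreated cells and 21.9 and 64.6 after LPS, a log2 change of -4.39 ± 0.50 (adjusted p = 0.00213). The size depends on the merging: the change was -2.57 in the fit without the wide library and -2.28 when all 8 Pol II libraries were merged, and it was called in both. Leaving out LPS replicate 1 or 2 gave -3.63 and -5.15. Alox5, the enzyme that starts leukotriene synthesis, fell from 273 and 354 to 24.02 and 25.5 (log2 -3.60 ± 0.27) and from a covered length of 6.21 kb to 0.886 kb. Losses inside Ralgps1 (an activator of Ral GTPases), Dtnb (a dystrobrevin) and Cacna1d (a calcium channel subunit) held 248 and 386, 231 and 264 and 259 and 162 scaled tags untreated and 21.4 and 9.43, 16.6 and 12.2 and 15.7 and 9.71 after LPS. The rest of the 12 largest losses over genes lay over Gm33448, Ttc39a, Exoc3l2, Prtg, Angpt2 (inside Mcph1), 3110082I17Rik and Itpk1, with log2 changes from -3.50 to -4.07. Exoc3l2 changed by -3.79, and by -3.12 and -4.47 without LPS replicate 1 or 2. In all 12 both LPS libraries lay below both untreated libraries, which was a condition of their choice.

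**Figure D2:**
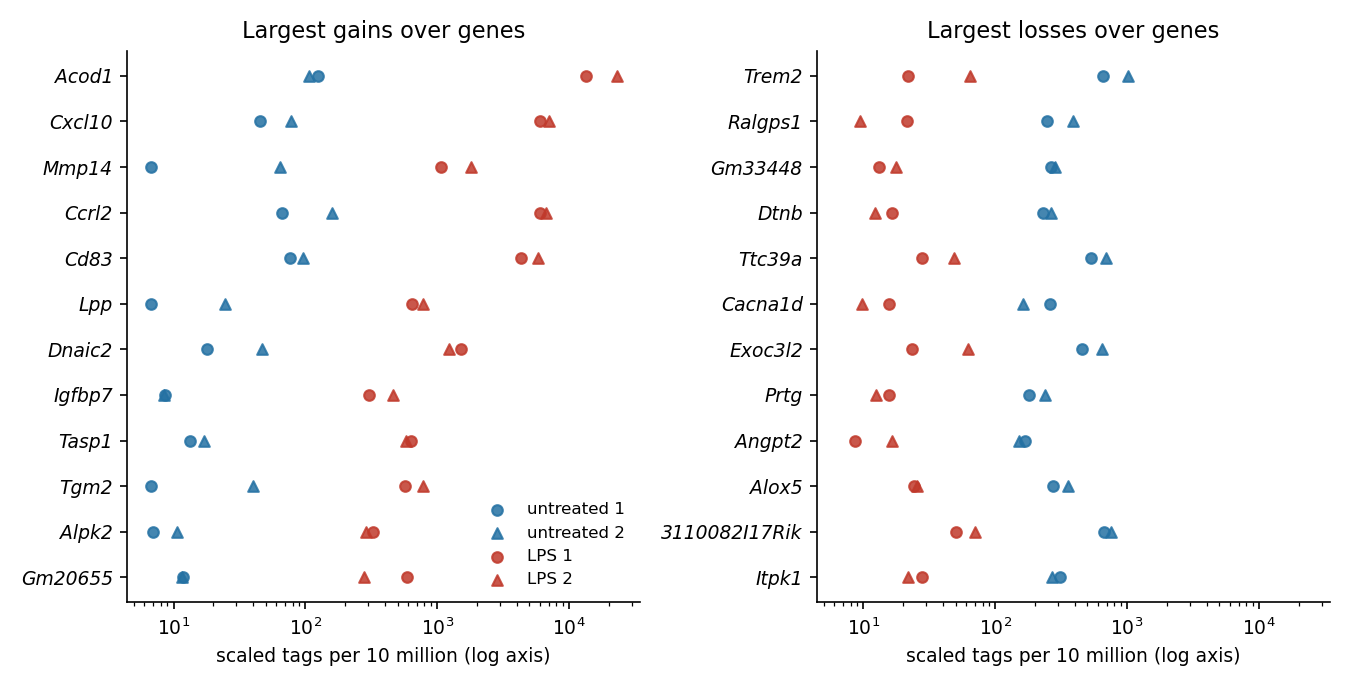
Scaled Pol II tags per 10 M (log axis) in each of the 4 libraries for the 12 largest gains (left) and the 12 largest losses (right) over genes; blue marks untreated, red LPS, circles replicate 1, triangles replicate 2. The groups do not overlap in any of the 24 genes, which was a condition of their choice. Acod1 runs from 106 untreated to 22902 after LPS, and Mmp14, Lpp and Tgm2 show the widest spread between untreated replicates.

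Gene lists were set beside the background of 15.4% of tested regions called higher and 14.0% lower, with each gene represented by its tested region of highest signal. That signal is the mean of all 4 libraries, LPS included, so the choice of region is not independent of a gain. The background was not chosen in this way, and a like background was not computed. In the housekeeping list, chosen alike, 7 of 20 regions were higher and 2 lower. Secreted ligands had the highest median change of the 17 lists. Of the 34 cytokine and chemokine genes, 23 had a tested region, in 20 regions, of which 15 rose and 1 fell, with a median log2 change of 2.39 (12 rose and 0 fell in the fit without the wide library). Per kb 9 rose and 2 fell, with a median of 0.67, against 7.5% and 6.61% of all tested regions. The neighbouring neutrophil chemoattractants Cxcl1 and Cxcl2 share a region (chr5:90891493-90910786) that held 1737 and 1069.5 scaled tags before and 28623 and 34372 after LPS (log2 4.52 ± 0.28, adjusted p = 0.000465). Csf3, which encodes the growth factor of granulocytes and shares its region with Med24, rose from 234 and 241 to 1797 and 1735. Lif, a cytokine of the interleukin-6 family, rose from 17.2 and 30.2 to 470.2 and 748, and Ccl2, a monocyte chemoattractant, from 197 and 407 to 1541 and 6072. Ccl2 changed by 3.43 with all 4 libraries and by 4.42 and 2.44 without LPS replicate 1 or 2, and was not called without the wide library (log2 2.86, adjusted p = 0.0524). Csf1, the macrophage growth factor, rose from 55.4 and 63.4 to 416 and 841. No condition overlapped with the other in any of these genes. Lif, Ccl2 and Csf1, like Myc, Pim1, Klf6, Cd40, Irf1, Aff1, Ifit2, E2f1, Ccnd1, Plk1, Csf1r, Cxcr4, Ptgs2, Slfn2, Src and Mrpl39 below, were picked after their values were seen.

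Several cytokine genes had too little Pol II in untreated cells to enter the test. Ccl5, a T-cell and monocyte chemoattractant, had no region in untreated replicate 1, 22.3 deposited normalized tags in untreated replicate 2, and 8441 and 8150 in the LPS libraries. The interleukin-1 receptor antagonist gene Il1rn had none in untreated replicate 1, 23.4 in untreated replicate 2, and 790.5 and 1542 after LPS over 1 of its 2 regions. Csf2 and Ccl7 had a region in both LPS libraries only, at 36.0 and 309 deposited normalized tags for Csf2 and 64.2 and 218 for Ccl7. At this time point Il6, Il10 and Il1b had a region in 1 LPS library each, at 10.3, 6.46 and 35.9 tags, against lowest values per library of 5.26 to 6.06, and no region lay over Il12b or Ifnb1.

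On the sensing side, 7 of 26 regions of LPS receptors and signal transducers rose and none fell (median log2 0.41), and 4 rose per kb (median 0.07). Tlr2, the receptor of bacterial lipoproteins, rose from 876 and 1021 to 6761 and 8622 (log2 3.01 ± 0.20, adjusted p = 0.000481). Tbk1, the kinase that activates interferon regulatory factors, rose from 201 and 231 to 1492 and 1181, and Irak3, an inhibitor of Toll-like receptor signalling, from 286 and 248 to 878 and 785. The groups of all 3 genes were well apart. The region of Tbk1 is shared with Xpot and that of Irak3 with Tmbim4, and 16.2% of the latter region lay inside Irak3.

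NF-kB itself and its feedback inhibitors were mostly gains: of 28 regions, 18 rose and 2 fell (median log2 1.60), and 16 rose and 2 fell without the wide library. Per kb 12 rose and 1 fell (median 0.27). Among the subunits, Nfkb2 rose from 727 and 679 to 2483 and 3023 (log2 1.96 ± 0.17), Relb from 250.3 and 203 to 763 and 588 (1.57 ± 0.21), Nfkb1 from 250.3 and 278 to 734 and 644 (1.38 ± 0.17) and Rel from 550.1 and 588 to 849 and 1055 (0.73 ± 0.17). The calls of Nfkb1 and Rel were lost without the wide library (adjusted p = 0.0872 and 0.107). Rela, the subunit p65, held 664 and 675 before and 720.4 and 1125 after LPS and was not called (log2 0.43 ± 0.23, adjusted p = 0.211). Per kb, Rela was called lower (-0.76, adjusted p = 0.0481), and Nfkb1 (-0.26), Rel (-0.078) and Relb (0.005) were not called, while Nfkb2 was still higher (0.77, adjusted p = 0.0264). Of the inhibitors, Nfkbia rose from 1501 and 1547 to 7102 and 12446 (log2 2.62 ± 0.28), Nfkbiz from 716 and 661 to 7006 and 7307, Nfkbib from 177 and 91.3 to 908 and 654 (log2 2.59, and 3.35 without the wide library), and Tnfaip3, which encodes the ubiquitin-editing enzyme A20, from 228 and 213 to 2308 and 2925. Neighbouring genes share the regions of Nfkb2 (Psd), Relb (Clptm1), Rela (Sipa1), Nfkbiz (Nxpe3) and Nfkbib (Sirt2). The shared region covered 38.9% of Nfkbib. The largest change of the list was that of Traf1, an adaptor of TNF receptors, from 671 and 738 to 10545 and 13197 (log2 4.07 ± 0.19, adjusted p = 0.000343). Tnfaip2, Birc3, Ikbke and Tank rose by 2.75, 2.08, 2.88 and 2.13 on the log2 scale. The regions that fell were those of Otud1 (log2 -1.36 ± 0.27), a deubiquitinase, and Tifa (-1.43 ± 0.33), an adaptor upstream of TRAF6; neither call held without untreated replicate 1 (adjusted p = 0.0612 and 0.0657) or without untreated replicate 2 (0.139 and 0.126).

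In the AP-1, ATF and small MAF list 6 of 15 regions rose and none fell (median log2 0.63), with 4 higher without the wide library and 5 per kb. Atf3, a stress-induced repressor, rose from 1307 and 1476 to 6644 and 8453 (log2 2.43 ± 0.20), Maff from 397 and 466 to 1386 and 1349 (1.67 ± 0.16) and Junb, in a region shared with Prdx2 and Rnaseh2a, from 3623 and 4073 to 9727 and 11039 (1.43 ± 0.20). Jdp2 rose by 1.30, while Fosl1 (0.64) and Atf4 (0.76) were called with all 4 libraries and not without the wide library (adjusted p = 0.110 and 0.173). Fos held 735 and 602 untreated and 1209 and 676 after LPS, was not called on summed tags (log2 0.44 ± 0.29, the conditions overlapping), and was called on tags per kb (1.21, adjusted p = 0.00321), its region being 7.32 kb before and 3.58 kb after LPS.

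Of 31 immediate-early genes outside AP-1, 20 regions rose and none fell (median log2 1.34); without the wide library 14 rose and 2 fell, and per kb 17 rose and 0 fell (median 0.80). Nr4a1 counts in this list with its strongest region, which was not called. Plk2, a stress-induced kinase, rose from 1022 and 1113 to 9103 and 9842 (log2 3.15 ± 0.17), Csrnp1, a nuclear protein induced by axin, from 339 and 329 to 2109 and 2481, and Phlda1 from 328 and 295 to 1823 and 1582. The growth regulator Myc rose from 124 and 68.1 to 1499.95 and 1759 (log2 4.13 ± 0.29), the kinase gene Pim1 from 608 and 729 to 4246 and 6241, and Klf6, a zinc finger factor, from 2041 and 2179 to 10443 and 10764. These values had no overlap between conditions.

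Nr4a1, the gene that encodes Nur77, had 3 tested regions, none of them strong. The one that holds its listed start (chr15:101265756-101267711) rose from 15.0 and 11.7 to 73.6 and 39.4 scaled tags (log2 1.95 ± 0.45, adjusted p = 0.0225), and this call was lost without the wide library (adjusted p = 0.0656), without untreated replicate 2 (0.099) and without LPS replicate 1 (0.111). The other regions changed by -1.07 ± 0.53 and -0.70 ± 0.39 and were not called. In these files, tags from a construct that carries Nr4a1 sequence and tags from the cells' own gene cannot be told apart.

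Regulators of mRNA decay and cytokine signalling moved in both directions, 7 of 19 regions up and 2 down. Without the wide library it was 4 up and 1 down, and per kb 5 up and 2 down. Cish, which encodes an inhibitor of cytokine receptors, rose from 16.3 and 15.8 to 285 and 301 (log2 4.11 ± 0.28), and Zc3h12c, a relative of the mRNA-degrading regnase, from 315 and 344 to 1898 and 1401. Zfp36l2, which encodes a protein that destabilizes AU-rich mRNAs and shares its region with Thada, fell from 2619 and 2922 to 372 and 591 (log2 -2.56 ± 0.24, adjusted p = 0.00119).

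In the interferon response list 6 of 23 regions rose and 1 fell (median log2 0.39), and 5 more members had a region in LPS libraries only. Without the wide library 4 rose and 1 fell, and per kb 2 rose and 0 fell. Ifih1, a sensor of double-stranded RNA, rose from 76.6 and 74.1 to 2256 and 1599 (log2 4.64 ± 0.21), Isg15, a ubiquitin-like protein whose region reaches Agrn, from 162 and 136 to 2609 and 1608, and Oasl1 from 675 and 608 to 5969.8 and 3907. Irf1, an early interferon regulatory factor, rose from 403 and 397 to 1519 and 2133. The region that fell was one over Ifit2, from 70.4 and 97.3 to 22.7 and 22.5 (log2 -1.83 ± 0.35). It covered 5.1% of that gene. In the last of 4 equal parts of Ifit2, the share under a region went from 0 in both untreated libraries to 9.31% and 9.67% after LPS. Ifit1, Rsad2, Gbp2, Gbp3 and Gbp5 had no region in untreated cells, and their deposited tags after LPS ran from 17.2 in Rsad2 to 191 in Ifit1.

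In the list of cell survival and death 12 of 22 regions rose and 0 fell (9 and 0 without the wide library, 8 and 0 per kb), and those that rose include, as seen afterwards, the pro-apoptotic genes Bcl2l11 and Bbc3 and the region shared by the inflammatory caspase genes Casp1 and Casp4. Nlrp3, the sensor of an inflammasome, rose from 432 and 526 to 7847 and 9337 (log2 4.16 ± 0.19), and the anti-apoptotic genes Bcl2a1b and Bcl2a1a from 1837 and 1809 to 10594 and 12309 and from 70.7 and 47.2 to 657 and 914. Bcl2a1a and Bcl2a1b are near-identical copies, and how tags were divided between them is uncertain. Surface receptors and adhesion molecules rose in 19 of 34 regions and fell in 4, and per kb 14 rose and 3 fell. Besides Ccrl2 and Cd83, the hyaluronan receptor gene Cd44 rose from 152 and 203 to 1854 and 2246, Plaur, the urokinase receptor, from 289 and 243 to 2024 and 2286, and the costimulatory receptor Cd40 from 138 and 104 to 1663 and 2926 (log2 4.19 ± 0.30). The 4 that fell include Trem2, the chemokine receptor Cxcr4 (315 and 373 to 98.4 and 113) and Csf1r, the receptor of the macrophage growth factor (562 and 859.6 to 251 and 372, log2 -1.18 ± 0.28); the call of Csf1r was lost without untreated replicate 2 (adjusted p = 0.118) and without LPS replicate 1 (0.0501).

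Among induced enzymes 6 of 14 regions rose and 3 fell, and per kb 4 and 3. Ptges, a prostaglandin E synthase, rose from 1157 and 1487 to 11577 and 11809 (log2 3.15 ± 0.20), Ptgs2, the inducible cyclooxygenase, from 39.7 and 18.2 to 540.5 and 1089.6 (4.78 ± 0.46), and Sod2, the mitochondrial superoxide dismutase, from 228 and 202 to 1244 and 1578 (2.70 ± 0.19). Ptgs1, the constitutive cyclooxygenase, had a region in the untreated libraries only, at 43.3 and 49.9 deposited tags. Other large gains over a gene start were those of Slfn2, a Schlafen family gene (575 and 525 to 13114 and 11389), of the kinase gene Src (66.3 and 93.8 to 1282 and 1968), and of the region that holds the start of the microRNA host Mir155hg and reaches Mrpl39 (189 and 234 to 3456 and 4637).

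Of the regions of the Pol II pausing and elongation machinery, 7 of 36 rose and 1 fell (median log2 0.25). Per kb 1 rose and 1 fell (median -0.01). Ell2, a subunit of the super elongation complex, rose from 389 and 369.7 to 2114 and 2139.6 (log2 2.48 ± 0.15), and Aff1, its scaffold, from 874 and 529.9 to 2524 and 1604 (1.56 ± 0.31). Nelfcd, in a region shared with Ctsz, rose by 1.41 and Nelfb, in a region shared with Tor4a, had a log2 change of -1.38; both encode subunits of the negative elongation factor, and the shared regions do not say which gene carried the change.

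Macrophage lineage genes went both ways, 10 of 28 regions up and 6 down (median log2 0.11), and so did lysosome and lipid genes, 8 of 32 up and 7 down. Without the wide library it was 6 up and 4 down for the lineage and 4 up and 5 down for the lysosome, and per kb 6 and 4, and 3 and 5. Ets2 rose by 1.76 on the log2 scale and Cd14, the LPS co-receptor, from 4386 and 2973 to 18419 and 19568. Ctsb, a lysosomal protease, rose by 1.47 and the scavenger receptor Cd36 from 545 and 444 to 1139.8 and 1045. In the TCA cycle list 1 of 29 regions rose and 3 fell, and per kb 0 and 2. The one that rose was Dld, a shared subunit of the 2-oxo acid dehydrogenases (438 and 408 to 1661 and 1287), and those that fell include Idh2 (195 and 262 to 24.4 and 46.6, log2 -2.71 ± 0.38) and Pdk1, a kinase that inhibits pyruvate dehydrogenase (250.02 and 339.5 to 116 and 127, log2 -1.26 ± 0.23).

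Cell cycle genes mostly fell or were not called: 14 of 30 regions were lower, against 14.0% of all tested regions, and 2 were higher, with a median log2 change of -0.80. E2f1, a driver of S-phase genes, fell from 412 and 548 to 68.2 and 138 (log2 -2.28 ± 0.35), Ccnd1, cyclin D1, from 1596 and 2258 to 388 and 798 (-1.77 ± 0.35), and the mitotic kinase gene Plk1 from 86.7 and 137 to 28.9 and 38.05 (-1.69 ± 0.36). Cdkn2c, a CDK inhibitor, fell too, from 379.7 and 506 to 156 and 131 (-1.61 ± 0.22), as did E2f2 (-1.49 ± 0.21). Without the wide library 11 of the 30 fell, and per kb 8. Plk1 was no longer called without untreated replicate 2 (adjusted p = 0.148). Cdk6 rose instead, from 413 and 554 to 4139 and 4299 (log2 3.14 ± 0.19), in a region inside the gene that holds no listed start.

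In the housekeeping list 7 of 20 regions rose and 2 fell on summed tags, with a median log2 change of 0.58 against 0.02 over all tested regions. Per kb 2 rose and 2 fell, with a median of 0.06. Eef1a1, a translation elongation factor, rose from 2677 and 2629 to 6306 and 6664 (log2 1.29 ± 0.18), and Hsp90ab1 shares its region with Nfkbie (1768 and 1910.1 to 4532 and 6668). The tubulin gene Tuba1b fell from 1466 and 2029 to 659 and 794 (-1.25 ± 0.21). Without the wide library 3 of 20 rose and 2 fell. Of a list of 30 genes of other cell types, 4 had a tested region, 1 called higher and 2 lower.

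**Figure D3:**
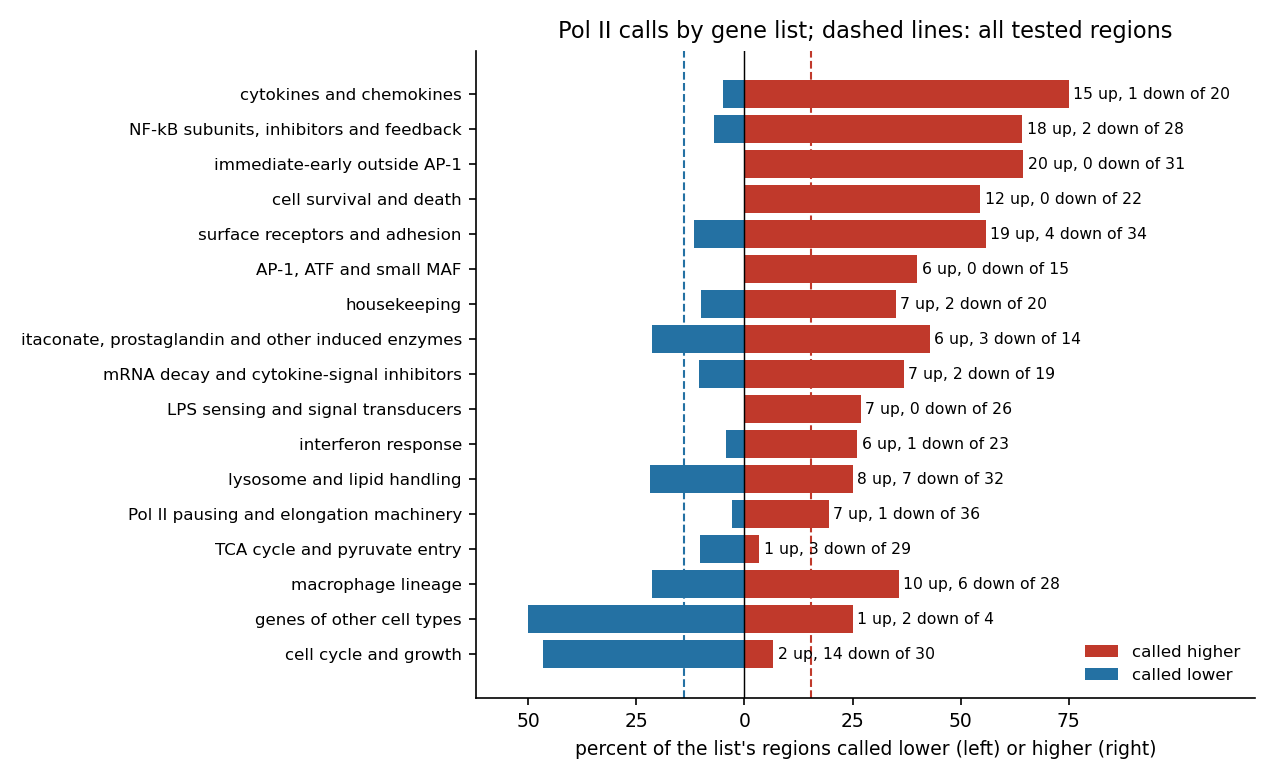
Share of each list's tested regions that was called higher (red, to the right) or lower (blue, to the left) after LPS, with counts beside the bars and lists ordered by their median log2 change. Dashed lines mark all tested regions, 15.4% higher and 14.0% lower; cytokines and chemokines reach 15 up of 20 and cell cycle genes 14 down of 30.

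Summed tags combine how long a region was and how dense. In regions called higher, the median covered length was 3.44 and 3.15 kb in the untreated libraries and 5.22 and 5.73 kb after LPS, and the median density went from 47.5 and 52.0 to 97.7 and 85.8 scaled tags per kb. In regions called lower, lengths went from 2.91 and 2.53 kb to 1.24 and 1.35 kb, and densities from 46.5 and 60.9 to 37.6 and 35.2 tags per kb. Regions not called went from 2.57 and 2.09 kb to 1.74 and 1.96 kb, and from 44.1 and 54.3 to 62.2 and 55.0 tags per kb. Against untreated replicate 2 alone, both LPS libraries covered more length in 90.3% of gains and less in 98.6% of losses, compared with 21.4% and 50.2% of regions not called. Length is part of the summed tags that set these classes, so the contrast is partly built in. Tested on tags per kb, 2591 regions were called (14.1%), 1377 higher (7.5%) and 1214 lower (6.61%). The test per kb was not repeated without the wide library. Of the 2821 gains on summed tags, 1171 were also gains per kb, 12 were losses per kb, and 303 had the opposite sign per kb whether called or not.

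Genes differed in which of the quantities moved. The region of Ccl3 and Ccl4, 2 neighbouring chemokine genes and the strongest region over genes after those of Malat1 and Tnf, went from 5209 and 5296 to 58439 and 74892 scaled tags, with 27.5 and 33.7 kb covered on average and a change per kb of 3.08. The region over Lilr4b, an immunoglobulin-like receptor gene, rose from 6938 and 7222 to 38515 and 47764 over 20.6 and 22.5 kb. That over Rgs1, a regulator of G-protein signalling, rose from 6192 and 5688 to 24234 and 31589.9 over 18.1 and 20.3 kb. Only 24.7% of the first lay inside Lilr4b and 21.0% of the second inside Rgs1. In these regions density rose more than length. Other regions gained mainly length. Sod2 had a covered length of 2.13 kb before and 15.8 kb after LPS and no call per kb (log2 -0.48, adjusted p = 0.177). Cd40, Csf1, Irf1, Tank, Tbk1 and Plaur likewise rose on summed tags and were not called per kb, with per-kb log2 changes of 0.62, 0.04, 0.07, 0.39, 0.60 and 0.61.

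The largest gains in length were those of Mapkapk2, a kinase downstream of p38 (11.7 to 55.1 kb), Rasgef1b (10.97 to 43.5 kb), Plek, the platelet and leukocyte protein pleckstrin (10.7 to 40.97 kb), Nfkbiz (8.81 to 37.01 kb), and the region shared by Ikbke, Rassf5 and Srgap2 (32.96 to 59.6 kb). Per kb, Mapkapk2 and Plek changed by -0.56 and -0.27 and were not called. Gpr146, an orphan receptor gene, lost most length among the losses, from 40.3 to 8.82 kb, and fell from 2813 and 2811 to 324 and 330.1 scaled tags (log2 -3.10 ± 0.15, adjusted p = 0.000343; -3.87 without the wide library). Zfp710, Itpr3, Tk1 and Recql4 followed, with log2 changes in summed tags of -1.43, -1.39, -1.24 and -0.71. Only 6.88% of the Itpr3 region lay inside that gene. The call of Recql4, whose region holds several other genes, was lost without the wide library (adjusted p = 0.0727).

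Among the strongest regions, that of Malat1, a nuclear long noncoding RNA, with Neat1 and Frmd8 held 43865 and 47439.8 scaled tags untreated and 36142 and 34047 after LPS and was not called (log2 -0.38 ± 0.34, adjusted p = 0.431). The region that holds Tnf, Lta, Ltb, Nfkbil1, Ddx39b and Aif1 rose from 11704 and 12869 to 70272 and 79505 (log2 2.61 ± 0.31), and its width means that Tnf cannot be separated from its neighbours. The region of Mcl1, an anti-apoptotic gene, and Ensa rose from 9562 and 11486 to 41338 and 50297; the call was lost without the wide library (adjusted p = 0.0845). A region that reaches the 3′ end of Vmp1, also among those with the largest gain in density, rose from 5738 and 8016 to 22187 and 28857. It was not called without the wide library either (adjusted p = 0.0769). Only 33.2% of it lay inside Vmp1, over 5.59% of the gene, and the region at the start of Vmp1 was not called.

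Coverage along genes was higher after LPS, on average, where the start region was called higher. For 6375 protein-coding genes of at least 10 kb whose listed start lay in a tested region, the share of the gene span under a deposited region was computed per library, over the whole gene and over the first and last of 4 equal parts. These calls rise with the length of the start region itself, which in some genes, such as Traf1 and Nlrp3, held the whole gene and ran past its end. Coverage near the start, along the gene and past its end is therefore not independent of the calls. Where the start region was higher (847 genes), the share was 16.3% and 16.3% in untreated cells and 24.9% and 31.3% after LPS. In the last part of these genes it went from 7.06% and 7.78% to 11.7% and 19.3%, and in the 5 kb past the end from 14.8% and 15.5% to 18.6% and 28.3%. Where the start region was lower (682 genes), the first part went from 34.1% and 34.5% to 18.1% and 21.1%, and the last part from 6.13% and 6.67% to 4.10% and 5.15%. Genes with a start region that was not called (4846) had 10.8% and 10.96% untreated and 9.6% and 12.7% after LPS. LPS replicate 2, the deepest library, gave the higher share of the pair in every class, and the part of depth in this was not tested. Over 50% of the span was covered in both libraries of a condition in 39 of the 847 genes before and 108 after LPS. Single genes varied: of the 847, 617 were more and 49 less covered in both LPS libraries than in both untreated ones, and of 539 with no region past the end in untreated cells, 67 had one in both LPS libraries.

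**Figure D4:**
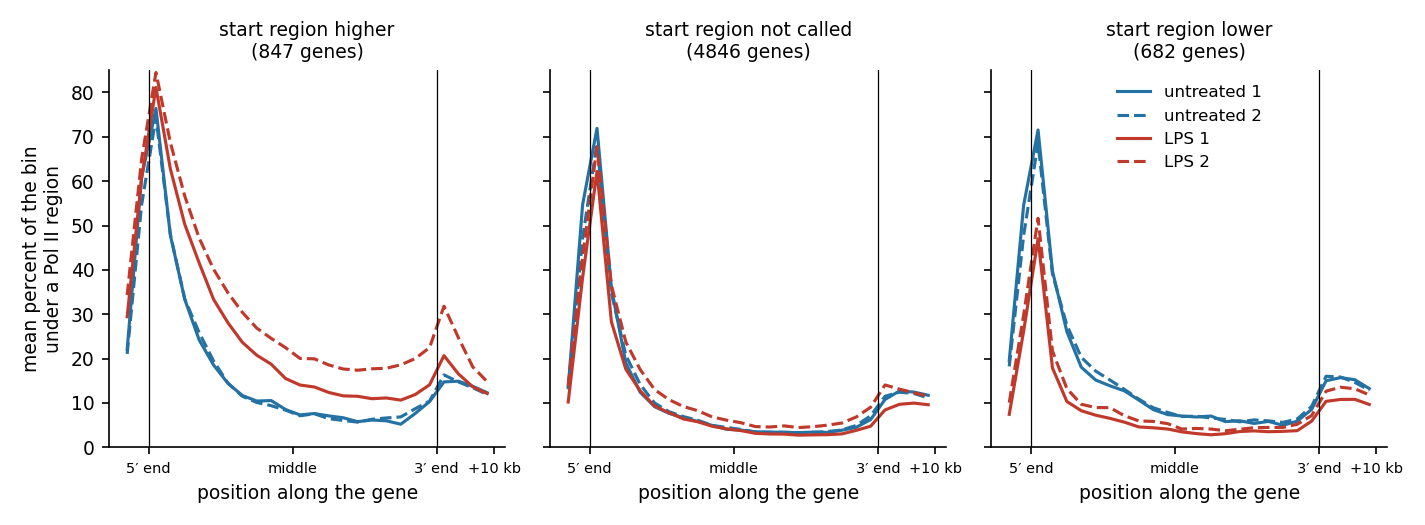
Mean share of each gene bin that lay under a called Pol II region (vertical axis, percent), along 20 equal bins from the 5′ to the 3′ end and in fixed 2.5 kb bins beyond both ends, by library and by the call of the region that holds the start. In the 847 genes with a gained start region both LPS libraries lie above both untreated libraries in all 20 bins, and in the 682 with a lost start region they lie below. Calls and coverage come from the same regions, so this separation is partly built into the grouping.

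Regions covered 12.1% and 15.7% of Traf1 in untreated cells and all of it in both LPS libraries, and Rasgef1b went from 20.3% and 17.03% to full coverage. In Nlrp3 coverage went from 18.5% and 18.4% to 95.8% in LPS replicate 1 and to the whole gene in LPS replicate 2, with the last part at 0 in both untreated libraries and at 83.3% in LPS replicate 1. In some longer genes the 3′ part was not covered to the same extent: Ifih1, of 50.6 kb, had its whole first part covered after LPS in both libraries and its last part at 0, and Src, of 47.9 kb, had 68.8% and 86.6% of its first part covered against 5.26% and 22.4% of its last. Cd44, of 90.5 kb, had 59.9% of its first and 33.4% of its last part covered in LPS replicate 1, and 97.4% of the first and all of the last in LPS replicate 2, so the LPS libraries differed widely. Among the losses, Gpr146 lost its region over the last part in both LPS libraries, from full coverage, and kept 79.5% and 80.4% of the first.

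Calls were spread over starts and other parts of genes. Of 8173 tested regions that hold a start listed in the RefSeq table, 13.9% rose and 12.4% fell. Of 4087 that lay over genes whose listed starts were all elsewhere, 17.5% rose and 15.0% fell, and of 2848 with no gene within 1 kb, 16.4% rose and 16.6% fell. The median gain was 1.08 on the log2 scale at starts, 1.70 within genes and 1.78 away from genes. Regions at starts were stronger and longer to begin with, with medians of 242 scaled tags and 3.21 kb against 60.3 tags and 1.92 kb within genes in untreated cells.

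H3K27ac, an acetylation mark of active promoters and enhancers, was measured in the same line (n = 2 per condition) and moved in the same direction as Pol II at most called regions. Over its own tested regions, 15895 of 31757 were called (50.1%), 24.7% higher and 25.4% lower. Of 2770 Pol II gains with a tested H3K27ac region, 89.1% had a rise in the strongest such region and 0.83% a fall, and of 2433 losses 92.8% had a fall. Regions without a Pol II call had a rise in 17.5% and a fall in 29.1%. At Cxcl10, Ccrl2 and Cd83 H3K27ac rose by 2.08, 2.93 and 2.26 on the log2 scale, and at Acod1, the largest Pol II gain, by 0.94. Src had the largest H3K27ac change among the genes named, 4.50. At the losses over Trem2, Alox5 and Gpr146 H3K27ac changed by -1.15, -1.75 and -1.90. Among named genes with a Pol II call, H3K27ac was not called at Lif (0.35, adjusted p = 0.385), Tgm2 (0.38, 0.0650), Hsp90ab1 (-0.01, 0.910) and the start region of Nr4a1.

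HA-Nur77 was mapped in the same line with a second fixative (2 mM DSG) and n = 3 per condition. A peak of HA-Nur77 present in all 3 LPS libraries overlapped 69.4% of Pol II gains, 42.4% of losses and 41.9% of regions not called; in untreated cells the shares were 57.4%, 43.5% and 33.6%. Gained Pol II regions are also longer, with a median merged span of 6.18 kb against 3.11 kb for losses and 2.89 kb for regions not called, and the part of length in these shares was not tested. HA peaks called higher after LPS (369 of 11226, 3.29%) lay in 131 of the 2821 Pol II gains, 2 of the losses and 30 of the regions not called. The HA calls rest on single libraries: limma called 0 without untreated HA replicate 1 (1625 at an unadjusted p under 0.05) and 0 without LPS HA replicate 1 (1741). The genes named with such an HA gain in their region include Nfkbiz, Tnfaip3, Nlrp3, Oasl1, Sod2, Tnfaip2, Slfn2, Zc3h12c, Lpp, Igfbp7, Tgm2, Cd40 and the regions of Dnaic2 and Tnf.

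Some regions appeared or vanished. Both LPS libraries and no untreated library had a region at 1965 places, and both untreated libraries and no LPS library at 1164. Which side held more depended on the processing: with stricter regions it was 1377 against 1448, and without untreated replicate 1, when 1 untreated library suffices, 2096 against 6250. Their signal was low, with medians of 16.9 and 24.5 deposited normalized tags against 143 in tested regions, and 68 and 77 of them held a listed start. The strongest over genes present after LPS only lay over Cybb, the catalytic subunit of the phagocyte oxidase (771 and 921 tags), and over Pakap (346 and 591). A region in Cd44 (194 and 407) was among the 8 strongest. Of the Cybb region 25.1% lay inside the gene, and other regions covered 21.6% and 19.2% of Cybb in untreated cells. The strongest present in untreated cells only lay over Mlycd, which encodes malonyl-CoA decarboxylase (284.5 and 255 tags), over Card14 and Sgsh (179.9 and 217) and over Pcnx (161 and 149.9). These counts concern single regions, not whole genes, and other regions covered 8.91% and 21.2% of Mlycd after LPS. H3K27ac was higher at 777 of the 1022 LPS-only regions where it was tested, and lower at 495 of the 634 untreated-only ones.

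The GFP line gives the same contrast without HA-Nur77. In the fit of all 8 libraries 3164 of 17059 regions were called in the GFP line (18.5%), 1707 higher (10.0%) and 1457 lower (8.54%). Of the 2671 gains of the Nur77 line that could be matched, 57.7% were gains in the GFP line, 0 were losses, and 99.5% had the same sign, while of 2412 matched losses 52.9% were losses and 98.7% had the same sign. Of 1764 Nur77-line regions matched to a gain in the GFP line, 1542 were also called higher in the Nur77 line. Of 1471 matched to a GFP-line loss, 1276 were also called lower. Several Nur77-line regions can share 1 matched region, so these are not counts of GFP-line regions. The change in the Nur77 line differed from that in the GFP line at no region by limma at an adjusted p of 0.05 (0 of 17059, 0.0%), and 462 regions (2.71%) had an unadjusted p under 0.05, 220 with more and 242 with less change in the Nur77 line. The median SE of this difference was 0.40 on the log2 scale, so with 2 libraries per group a difference of that size was not detectable. Acod1 changed by 6.15 in the GFP line and by 7.23 in the Nur77 line in this fit, Cxcl10 by 5.42 and 6.74, and Mmp14 by 5.89 and 5.92. Genes with the smaller change in the Nur77 line included Irf1, which changed by 3.46 in the GFP and 2.15 in the Nur77 line, Nfkbia by 3.59 and 2.59, and Maff by 2.79 and 1.67. Cd36 was called in the Nur77 line and not in the GFP line (-0.05, adjusted p = 0.908); the difference between lines at Cd36 was 1.18, and the smallest adjusted p of any difference between lines was 1.0. By list, the GFP line had 14 of 20 cytokine and chemokine regions higher and 16 of 28 NF-kB regions higher, against 15 and 18 in the Nur77 line fitted with its own 4 libraries, and 6 of 30 cell cycle regions lower against 14. The median log2 changes of these lists were 2.20, 1.54 and -0.78 in the GFP line against 2.39, 1.60 and -0.80, and the counts come from fits of different size. The difference between lines at the level of lists was not tested.

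**Figure D5:**
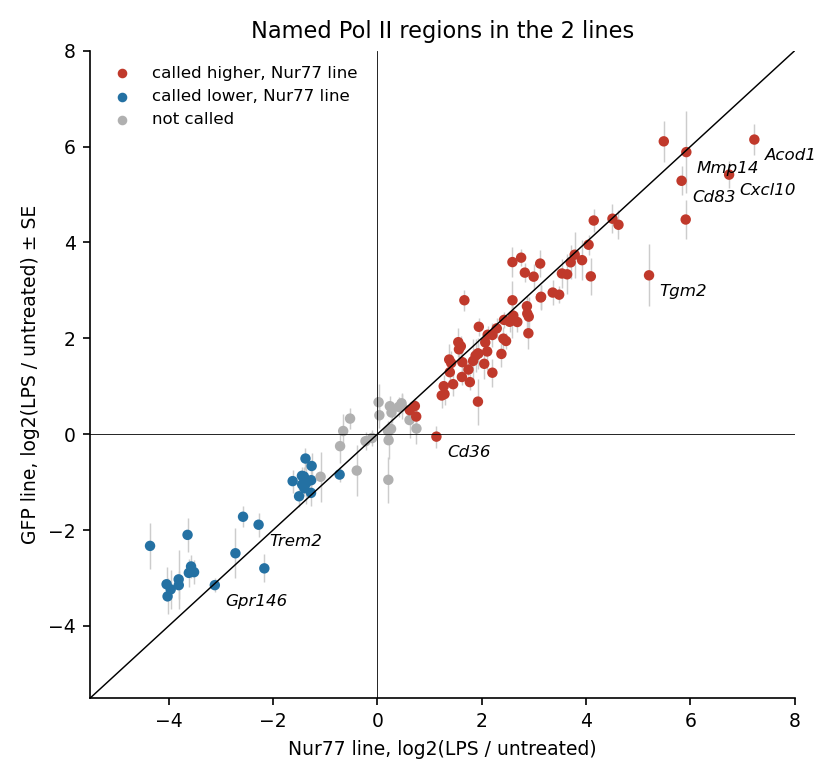
Log2 change after LPS in the Nur77 line (horizontal) and the GFP line (vertical, ± SE) for the named Pol II regions present in all 8 libraries, from 1 fit; colours give the call in the Nur77 line with its own 4 libraries and the line marks equality. Gains lie in the upper right and losses in the lower left; Cd36 is near 0 in the GFP line, and no region differed between lines at an adjusted p of 0.05.

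Pol II regions can overlap regions called in the input libraries, which hold unenriched chromatin. An overlap with an input region or peak of any line was found for 26.3% of gains, 13.2% of losses and 13.6% of regions not called, among them the regions of Ccrl2, Cd83, Traf1, Nlrp3 and Cxcl1. With all of these left out, 4321 of 15513 regions were called, 2247 higher and 2074 lower. The 12 largest gains and losses were chosen among regions with no overlap to a narrow input peak. Their values also had to show no overlap between conditions and a mean of at least 100 scaled tags in the higher condition.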

How the data were processed

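Pol II ChIP-seq regions of the Nur77 line were compared between 2 LPS and 2 untreated libraries. Per the file headers and the submitters' processing notes, the authors aligned reads to mm10 with HISAT2 2.1.0 and called regions in each library separately with HOMER in its histone style, with no input given to the caller; the HOMER version is not given in the sources used here. The deposited signal is the normalized tag count, in tags per 10 M mapped tags. These values are not whole counts, so no count model was used.

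Regions sharing at least 1 bp were merged in Python 3.11.15 (pandas 2.3.3, numpy 2.4.6), and tags and covered length were summed per library. Libraries were scaled by trimmed means of log ratios (trimming 30% of ratios and 5% of levels), with factors of 0.862 to 1.22. Regions with a value in all 4 libraries were tested, two-sided, with limma 3.58.1 in R 4.3.3 (trend, log2(tags + 1)), Benjamini-Hochberg adjusted over all tested regions with a threshold of 0.05. A fold change on that scale understates the change of low regions. Tags per kb were tested alike. The fit was also run on simulated data with noise drawn independently for each library, so that run does not give the error rate of the calls made here. H3K27ac (4 libraries), HA-Nur77 (6) and the interaction of line and LPS (8 Pol II libraries) were fitted in the same way. Gene positions and promoters come from RefSeq (GRCm38.p6). A region counts for every gene within 1 kb of it, and not every shared region is pointed out above.

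Genes named with values are the 12 largest gains and losses over genes, up to 3 called members per list with the smallest p, the regions with the largest changes in length or density, the 5 strongest, the strongest or listed ones called in 1 condition only, Nr4a1, and members of the NF-kB and AP-1 lists. Further genes were added after their values were seen, as the text says. The members and all lists were chosen with earlier results of these data known. The fit without the wide library, median scaling and the recount of 1-condition regions were added after seeing the data. GFP-line H3K27ac was not analysed here.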

Additional observations from a re-analysis of the deposited data

How the results depend on the processing

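Of 5396 Pol II calls, the count stayed within 1.5 times under no scaling, median scaling, a pseudocount of 10, a minimum of 50 mean tags, all 8 libraries, robust moderation, merging at 100 bp, stricter regions, input overlap left out and regions called in both libraries of 1 condition (4321 to 8042), and the split of higher to lower calls moved by over 10 percentage points without scaling (24.1% higher against 52.3%). It was 2591 on tags per kb, and 2858 in the 7-library fit without the wide untreated library. Leaving out 1 library gave 2284 (without untreated replicate 2) to 5274 calls, with 2918 without untreated replicate 1. With the replicate number as a replicate block it was 9666, and HA-Nur77 calls went from 521 to 4532; the labels do not say that a number marks a shared culture, and deviations of same-numbered libraries correlated with r of 0.519, of 2 pairs only. HA-Nur77 calls fell to 6 without scaling and ranged from 0 to 598 when 1 library was left out. Regions in 1 condition only went from 3129 to 8346 without untreated replicate 1, when 1 untreated library suffices. The difference between lines stayed at 0 calls in every alternative run, with 315 to 1386 regions at an unadjusted p under 0.05, and H3K27ac calls stayed between 11514 and 17456.

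Of 1995 values of 122 named regions under the alternatives, 1919 kept direction and side of the threshold, 59 lost the call, 8 gained it and 9 changed sign. On tags per kb the sign changed for Sod2 (-0.48), Nfkb1 (-0.26), Rel (-0.078), Rela (-0.76, called lower, adjusted p = 0.0481), Mapkapk2 (-0.56), Plek (-0.27), Tifa (0.14) and the Nr4a1 region at 101253203 (0.27), and without scaling for Rela (-0.0018). By construction tags per kb divide by a length that rose in gains; for the other settings the cause was not tested. Regions under about 6 tags per library are below what was called, so a region listed in 1 condition only may hold signal in the other.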
